A study of Mus musculus with 14 samples.

Results

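RNA levels of 40 genes that build triglyceride, store it in lipid droplets and break it down again were followed in mouse liver cancer cells that lacked ATP-citrate lyase (ACLY), acyl-CoA synthetase short-chain family member 2 (ACSS2) or both. The genes were taken by name from a table of normalized RNA-seq counts of 24972 gene symbols, and all 40 were found. They comprised 17 genes of glycerolipid synthesis, 10 genes of lipid droplet proteins, 9 genes of lipases and their regulators, and 4 genes of lipoprotein lipid handling. Of the 40, 28 reached a mean of at least 10 normalized counts over the 14 libraries and were tested. The other 12 were too low to test.

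Triglyceride is made from glycerol phosphate by stepwise addition of fatty acyl groups. Glycerol phosphate acyltransferases and lysophosphatidate acyltransferases produce phosphatidate, the lipins remove its phosphate, and the diacylglycerol acyltransferases attach the last acyl chain. The product collects between the leaflets of the endoplasmic reticulum membrane and buds off as a droplet coated by perilipins. Adipose triglyceride lipase, hormone-sensitive lipase and monoglyceride lipase then release the acyl chains in turn, while liver cells also load triglyceride onto apolipoprotein B for secretion. The acyl chains made inside the cell come from acetyl-CoA, which ACLY produces from citrate and ACSS2 produces from acetate, and the study asked how cells fare when these enzymes are removed.

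The libraries were poly(A) RNA-seq of hepatocellular carcinoma cell lines derived from a diethylnitrosamine-induced tumour of an Acly f/f mouse, grown for 24 hours in medium with 10% calf serum. WT cells (4 libraries, replicates 1 to 4) kept both enzymes. ACLY KO cells (4 libraries, replicates 1 to 4) came from the same line after adenoviral Cre had removed the floxed Acly exons and a clone had been isolated. ACSS2 KO cells (3 libraries, replicates 1, 2 and 4) were a clone of the WT line edited with a CRISPR guide against the first coding exon of Acss2, and DKO1 cells (3 libraries, replicates 1, 3 and 4) were a clone of the ACLY KO line edited in the same way. All 4 lines carried the LentiCRISPR v2 vector, which was empty in WT and ACLY KO cells, and all had passed puromycin selection. Each genotype was represented by 1 line, and genotype and clone cannot be told apart. WT cells were a bulk population after selection, with no cloning step described. The 3 knockout lines had all passed through single-cell cloning, ACLY KO before it received its vector. A difference of all 3 knockouts from WT therefore cannot be told apart from one between cloned and bulk cells. The replicates were repeat libraries of these lines, so the p-values measure the spread between libraries of a line.

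The normalized counts of a library summed to between 23565707 and 26946164. Acly averaged 6049.7 ± 423 normalized counts in WT (SD, n = 4), 1001 ± 56.1 for ACLY KO, 5684 ± 124 for ACSS2 KO and 946 ± 12.9 for DKO1, which fits the labels. Acss2 averaged 237 ± 11.5, 718 ± 56.7, 132 ± 4.88 and 535 ± 69.1 in the same order. It was below WT in ACSS2 KO and below ACLY KO in DKO1, yet above WT in DKO1, and an edit in the first exon need not remove the mRNA, so this level does not check the edit. Among 10 hepatocyte markers, the keratins Krt8 and Krt18 had means of 21193 and 20336, and Apoa1 and Serpina1a were near 0. Their sum, led by these keratins, ranged from 48146 to 65073 in WT, 34765 to 37922 for ACLY KO, 41061 to 44029 for ACSS2 KO and 26339 to 45295 for DKO1. The liver genes among them had their highest means in different genotypes. In the order WT, ACLY KO, ACSS2 KO and DKO1, Hnf4a averaged 172 ± 21.9, 28.7 ± 8.95, 39.8 ± 7.86 and 22.4 ± 5.27, Alb 31.4 ± 3.89, 23.4 ± 2.13, 134 ± 4.59 and 11.3 ± 4.71, Afp 37.02 ± 12.2, 127 ± 9.17, 34.3 ± 4.06 and 209.7 ± 116 and Apob, whose product carries the lipid that Mttp loads, 112 ± 38.7, 80.1 ± 13.98, 30.1 ± 4.73 and 282 ± 163. All 5 cholangiocyte markers were detected, Krt7 at a mean of 8686, and their sum ranged from 21904 to 32124 in WT, 8768 to 9512 for ACLY KO, 18319 to 20564 for ACSS2 KO and 11337 to 18368 for DKO1. This sum was led by Krt7 (means in the same order 13364, 3993, 9053 and 8338) and Krt19 (11015, 4569, 9508 and 5004). Sox9 (621, 390, 723 and 409) and Epcam (12.7, 3.05, 19.7 and 6.89) were highest in ACSS2 KO, where Cftr (232, 147, 47.1 and 114) was lowest. Of 8 fibroblast or stellate markers, 6 had means of at least 10, and their sum was 2185 to 2498 in WT, 3556 to 3917 for ACLY KO, 5300.2 to 6233 for ACSS2 KO and 2102 to 2219 for DKO1. The markers did not move together. In the same order, Acta2 averaged 1657, 630, 4454 and 774, and Dcn 154, 182, 820 and 178, both highest in ACSS2 KO. Col1a1 averaged 428, 2454, 523 and 477, highest in ACLY KO. Highest in DKO1 were Col1a2 (19.3, 55.8, 19.2 and 99.6), Col3a1 (80.6, 401, 68.4 and 587) and Pdgfrb (11.5, 13.8, 27.2 and 31.5). The adipocyte markers Plin1 and Adipoq were at or near 0, and only Lep among 7 averaged at least 10. Of 6 immune markers, 2 averaged at least 10, and their sum, led by Csf1r (mean 1205), ranged from 1098 to 1295 in WT and 1076 to 1545 in DKO1. The sum of 5 endothelial markers was 18.6 to 28.3 in WT, 77.1 to 92.3 for ACLY KO, 10.5 to 18.3 for ACSS2 KO and 42.1 to 51.2 for DKO1. Pecam1 averaged 7.51, 61.7, 9.31 and 37.7 in the same order, while the low Kdr averaged 12.9, 2.21, 3.84 and 2.05. The part of these marker shifts in the results was not tested. In DKO1 replicate 4 the deviation from its group fell with transcript length (Spearman's rho across genes, which are not independent, -0.67), against 0.63 and 0.58 in the other 2 DKO1 libraries, and each other genotype held 1 such library, with -0.58 for WT replicate 2, -0.57 for ACLY KO replicate 4 and -0.52 for ACSS2 KO replicate 1. Counts of members called are given also without each of these 4 libraries where they changed.

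Plin2, which encodes the perilipin that coats droplets in most tissues, had the highest RNA level of all 40 genes when counts were divided by transcript length. On the scale of normalized counts per kilobase of the longest annotated transcript, the Plin2 level was 2475 ± 150.4 in WT, 2298 ± 48.9 for ACLY KO, 1779.9 ± 65.9 for ACSS2 KO and 1827 ± 198 for DKO1. Agpat1, Agpat4 and Agpat3, which encode acyltransferases of the lysophosphatidate family, came next, followed by Pnpla2, the gene of adipose triglyceride lipase. Mgll, which encodes monoglyceride lipase, was the lowest of the 28 tested genes at 7.31 ± 0.62 in WT, 28.2 ± 2.11 for ACLY KO, 4.40 ± 0.356 for ACSS2 KO and 9.99 ± 2.00 for DKO1. The longest transcript may not be the one these cells use, and it was unusually long for Agpat5 (10779 bases) and Pnpla8 (13507 bases), whose levels per kilobase are then low.

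The families differed in how many of their members were in use. Among the perilipins, Plin2 made up 83.1% ± 0.384 of the family's counts per kilobase in WT (SD, n = 4), 81.4% ± 0.727 for ACLY KO, 73.4% ± 0.378 for ACSS2 KO (n = 3) and 71.3% ± 0.707 for DKO1 (n = 3). Plin3 took 16.2% ± 0.458, 16.3% ± 0.662, 25.6% ± 0.412 and 24.2% ± 2.38, and Plin4 0.686% ± 0.143, 2.31% ± 0.203, 1.03% ± 0.0366 and 4.50% ± 1.77. The Plin2 share thus split the libraries by ACSS2 genotype, without overlap, and the mean Plin4 share was highest in DKO1, although its lowest DKO1 library (2.46%) was below the highest ACLY KO library (2.54%). Lpin2 was the main lipin in every genotype, and the Lpin1 share was 13.5% ± 1.75 in WT, 23.95% ± 1.51 for ACLY KO, 11.6% ± 0.706 for ACSS2 KO and 23.01% ± 1.08 for DKO1. Dgat1 held 87.8% ± 2.12 of the DGAT pair in WT and 86.2% ± 1.46 in ACLY KO. Gpam gave all or nearly all counts of the Gpam and Gpat2 pair. Gpat3 and Gpat4, which act at the same step, were not counted in this pair, so its shares do not cover the step. These shares are descriptions and were not tested.

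**Figure D1:**
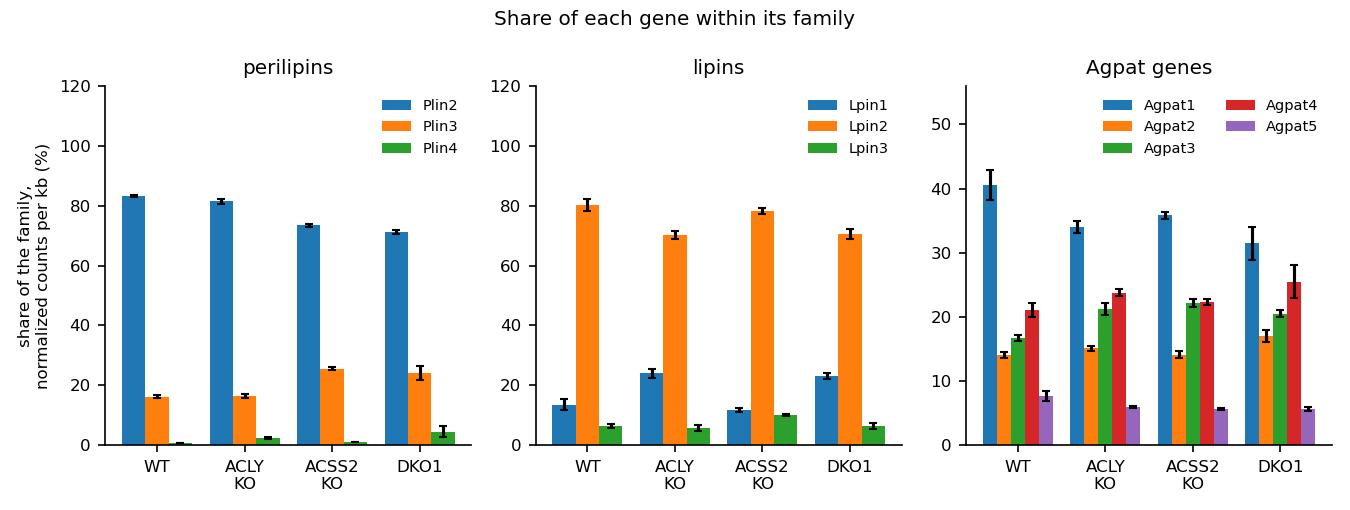
Bars show each gene's share (%) of the normalized counts per kilobase of its family in the 4 genotypes, as the mean over libraries, with the SD as error bars (n = 4 for WT and ACLY KO, n = 3 for ACSS2 KO and DKO1). Plin2 and Lpin2 lead their families throughout, while the Plin3 share is larger in ACSS2 KO and DKO1 and the Lpin1 share is larger in ACLY KO and DKO1.

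The 12 genes below the limit for testing included whole branches of the pathway as it runs in intestine, muscle and adipose tissue. Fitm1, a droplet biogenesis gene of skeletal muscle, was listed at 0 in all 14 libraries. Plin5, Cidea, Cidec, Gpat2, Mogat1, G0s2 and Lpl did not exceed 3.37 normalized counts in any library. Cideb, which encodes a droplet protein of hepatocytes, had the highest mean of the 12 at 6.44 and reached 13.5 in ACSS2 KO replicate 4. Mogat2, Pnpla3 and Lipc peaked at 8.47, 9.28 and 5.08. Differences in these genes were not tested.

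Starts of transcription as annotated by RefSeq (GRCm38.p6) were available for 32 of the 40 genes, at 46 start sites. The 250 bases before the start are shown for Plin4, Lpin1 and Mgll, 3 of the genes with higher RNA in ACLY KO than in WT, chosen after their values were seen, and for Plin2, the gene with the highest level. They lie on GRCm38 at chr17:56109783-56110032 (minus strand), chr12:16610967-16611216 (minus strand), chr6:88724162-88724411 (plus strand, the first of 2 starts) and chr4:86670060-86670309 (minus strand), each read 5′ to 3′ along its gene. Capitals mark CCAAT in Plin4 and Plin2, AGGTCA in Lpin1 and Plin2, and CACGTG in Mgll, on either strand.
Plin4: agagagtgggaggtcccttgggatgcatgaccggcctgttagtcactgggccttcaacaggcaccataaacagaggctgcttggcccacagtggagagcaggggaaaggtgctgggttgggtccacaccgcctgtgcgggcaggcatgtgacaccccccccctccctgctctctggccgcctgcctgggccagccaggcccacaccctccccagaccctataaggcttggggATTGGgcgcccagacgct
Lpin1: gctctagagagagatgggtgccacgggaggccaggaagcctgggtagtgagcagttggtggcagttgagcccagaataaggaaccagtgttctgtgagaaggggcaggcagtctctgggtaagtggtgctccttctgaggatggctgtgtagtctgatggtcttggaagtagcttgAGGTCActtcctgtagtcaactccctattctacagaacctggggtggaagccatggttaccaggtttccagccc
Mgll: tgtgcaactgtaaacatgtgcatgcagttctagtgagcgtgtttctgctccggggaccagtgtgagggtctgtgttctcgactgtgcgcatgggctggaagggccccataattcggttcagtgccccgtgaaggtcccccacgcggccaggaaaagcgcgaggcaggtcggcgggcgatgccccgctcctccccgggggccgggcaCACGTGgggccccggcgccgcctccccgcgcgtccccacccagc
Plin2: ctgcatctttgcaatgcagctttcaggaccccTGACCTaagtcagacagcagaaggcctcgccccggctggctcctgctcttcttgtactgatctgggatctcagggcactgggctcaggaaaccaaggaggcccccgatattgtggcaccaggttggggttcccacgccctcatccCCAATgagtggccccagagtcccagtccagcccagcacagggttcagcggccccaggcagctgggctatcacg
The motifs were searched on both strands in windows of the 250 bases before each start. The E-box CACGTG was found in 10.9% of the 46 windows and in 6.02% of all 32851 promoters in the table. ACGTG, the core of hypoxia response elements, which CACGTG contains, was found in 23.9% and 16.6%. AGGTCA, a nuclear receptor binding element, was found in 17.4% and 14%, CCAAT in 32.6% and 33.8%, and the GC box GGGCGG in 50% and 32.7%. AGGTCANAGGTCA, the direct repeat of that element, was in none of the 46 windows and in 0.0335% of all. A match describes letters in a window and does not show that a factor binds there.

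Of the 28 tested genes, ACLY KO differed from WT in 16, ACSS2 KO in 14 and DKO1 in 21, at an adjusted p under 0.05 (limma, Benjamini-Hochberg over all 12711 genes tested). The ACLY KO calls were 57.1% of the members, beside 48.5% of all genes tested, with 9 members higher (23.8% of all genes were) and 7 lower (24.7% of all). The ACSS2 KO calls were 50% of the members beside 26% of all genes, with 6 higher (15.1% of all) and 8 lower (11% of all). The DKO1 calls were 75% of the members beside 56% of all genes, with 13 higher (27.9% of all) and 8 lower (28.1% of all). These 3 comparisons share the WT libraries. The median log2 fold change of the 28 was 0.091 for ACLY KO, 0.032 for ACSS2 KO and 0.16 for DKO1, and that of all genes tested was -0.0067, 0.0013 and 0.0035. Scaling every library to the same total gave 11 higher and 5 lower in ACLY KO, and 8 higher and 6 lower in ACSS2 KO, and quantile normalization gave 4 higher and 9 lower in ACSS2 KO, so that the balance of directions in these 2 genotypes depended on the scaling.

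The comparisons with DKO1 as the first group ask what a second deletion adds. DKO1 against ACLY KO, where ACSS2 is lost on top of ACLY, gave 5 higher and 4 lower genes, 32.1% of the members beside 27.9% of all genes (14.3% higher and 13.6% lower). DKO1 against ACSS2 KO, where ACLY is lost on top of ACSS2, gave 11 higher and 5 lower, 57.1% beside 53.7% (25.9% higher and 27.8% lower). Of the 9 calls against ACLY KO, Plin2, Mgll and Abhd5 were the 3 that remained when those 2 groups alone were fitted. Quantile normalization gave 4 higher and 5 lower against ACLY KO, where the Lpin3 call was lost and Gpd1 was called lower. Without DKO1 replicate 4, the counts were 22 in DKO1 against WT, 12 against ACLY KO (9 higher and 3 lower) and 19 against ACSS2 KO, and ACSS2 KO and ACLY KO against WT rose to 19 and 18. The calls over all genes tested rose as well, from 3311 to 5086 in ACSS2 KO and from 6167 to 7821 in ACLY KO against WT. They went from 3550 to 3993 in DKO1 against ACLY KO and from 6823 to 7252 against ACSS2 KO. Without WT replicate 2, ACLY KO and DKO1 against WT gave 17 and 19, and DKO1 against ACLY KO gave 8. Over all genes, ACLY KO against WT then gave 6075 calls and DKO1 against ACLY KO 3801. Without ACLY KO replicate 4, ACLY KO, ACSS2 KO and DKO1 against WT gave 15, 12 and 19, DKO1 against ACLY KO 6 (4 higher and 2 lower) and DKO1 against ACSS2 KO 17. All genes tested then gave 5631 calls in ACLY KO and 3109 in ACSS2 KO against WT. DKO1 gave 3088 against ACLY KO and 6625 against ACSS2 KO. Without ACSS2 KO replicate 1, ACSS2 KO and DKO1 against WT gave 11 (4 higher and 7 lower) and 19, and DKO1 against ACLY KO gave 7 (5 higher and 2 lower). Among all genes, ACSS2 KO against WT then gave 2570 calls and DKO1 against ACLY KO 3283. Without ACSS2 KO replicate 4, ACSS2 KO against WT fell to 9, and without ACLY KO replicate 2, DKO1 against ACLY KO fell to 5.

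By role, genes of each kind were called in both directions across the 3 knockouts. The role counts stand beside calls in 48.5% of all genes tested in ACLY KO (23.8% higher and 24.7% lower). The shares were 26% in ACSS2 KO (15.1% and 11%) and 56% in DKO1 (27.9% and 28.1%). Whether any role differed from these shares was not tested. Of the 14 synthesis genes tested, ACLY KO had 6 higher and 3 lower, ACSS2 KO 4 and 2, and DKO1 7 and 3, with median log2 fold changes of 0.16, 0.11 and 0.20. Of the 5 droplet protein genes, ACLY KO had 1 higher and 0 lower, ACSS2 KO 1 and 2, and DKO1 2 and 1 (medians -0.070, -0.32 and 0.14). Of the 7 genes of lipases and their regulators, ACLY KO had 1 higher and 3 lower, ACSS2 KO 1 and 2, and DKO1 3 and 3 (medians -0.11, 0.062 and 0.014). Both tested lipoprotein genes, Angptl4 and Mttp, differed from WT in all 3 knockouts. Calls over all genes also moved when a library was left out. Without DKO1 replicate 4 they rose from 3311 to 5086 in ACSS2 KO and from 6167 to 7821 in ACLY KO against WT. Without ACSS2 KO replicate 1 they fell to 2570 in ACSS2 KO against WT. Leaving out a library of the 4 above changed the role counts as follows, and the role counts against WT that are not listed stayed the same in number. Without DKO1 replicate 4, ACLY KO had 1 higher and 1 lower droplet genes and 2 higher and 3 lower lipase and regulator genes, ACSS2 KO had 6 higher and 2 lower synthesis genes, 2 higher and 2 lower droplet genes and 3 higher and 2 lower lipase and regulator genes, and DKO1 had 6 higher and 3 lower synthesis genes and 3 higher and 2 lower droplet genes. Without WT replicate 2, ACLY KO had 7 higher and 3 lower synthesis genes, ACSS2 KO had 3 higher and 2 lower synthesis genes and 2 higher and 2 lower lipase and regulator genes, and DKO1 had 6 higher and 3 lower synthesis genes and 3 higher and 2 lower lipase and regulator genes. Without ACLY KO replicate 4, ACLY KO had 6 higher and 2 lower synthesis genes, ACSS2 KO had 3 higher and 2 lower synthesis genes and 1 higher and 1 lower droplet genes, and DKO1 had 6 higher and 3 lower synthesis genes and 3 higher and 2 lower lipase and regulator genes. Without ACSS2 KO replicate 1, ACSS2 KO had 3 higher and 2 lower synthesis genes and 0 higher and 1 lower droplet genes, and DKO1 had 6 higher and 3 lower synthesis genes and 3 higher and 2 lower lipase and regulator genes.

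**Figure D2:**
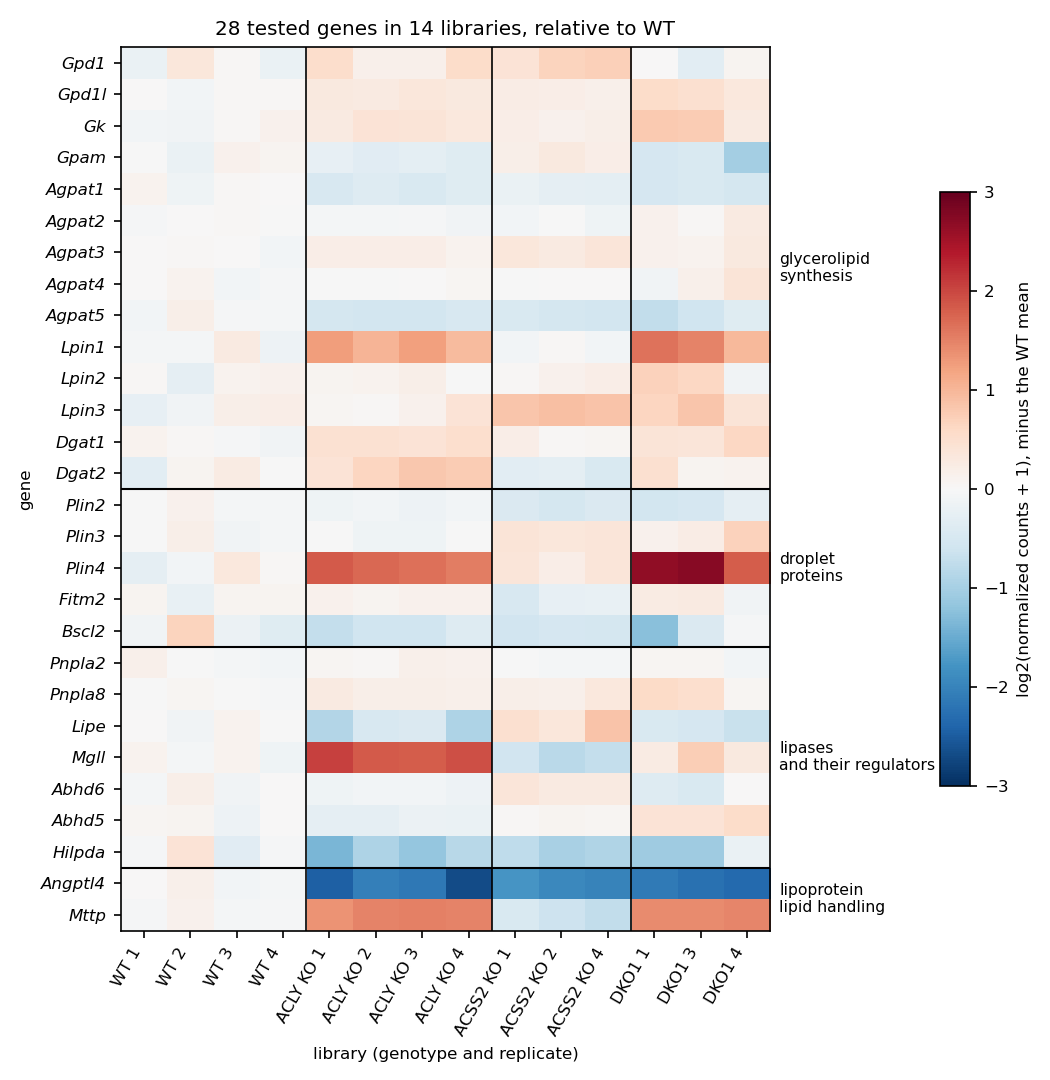
Each column is a library and each horizontal band a tested gene, grouped by role, coloured by log2(normalized counts + 1) minus the WT mean (red higher, blue lower). Plin4, Lpin1 and Mttp are red in all 7 ACLY KO and DKO1 libraries, Mgll is deepest red in ACLY KO, and Angptl4 is blue in all 10 knockout libraries.

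Among the suppliers of glycerol phosphate, Gpd1l and Gk were higher when ACLY was missing. Gpd1l, the more abundant of the glycerol phosphate dehydrogenase pair, averaged 1228 ± 43.4, 1513 ± 30.4, 1400.4 ± 35.2 and 1687 ± 138 normalized counts in WT, ACLY KO, ACSS2 KO and DKO1 (SD, n = 4, 4, 3 and 3, in the order used from here on). It was higher than in WT in ACLY KO (log2 fold change 0.30, SE 0.057, adjusted p = 0.000686) and DKO1 (0.46, adjusted p = 3.87e-05), and its small excess in ACSS2 KO (0.19, adjusted p = 0.0385) was lost in the 11 fits that left out a library other than DKO1 replicates 1, 3 or 4 (adjusted p up to 0.127). Gk encodes glycerol kinase, which recycles free glycerol. Its means were 815 ± 59.9, 1032 ± 48.8, 914 ± 23.5 and 1256 ± 246, higher than in WT in ACLY KO (0.34, adjusted p = 0.0151) and DKO1 (0.61, adjusted p = 0.000505), beside a median of 0.22 for the 383 tested genes of its chromosome, X, in DKO1 against WT. Gpd1, the classical liver enzyme, was low, with means of 53.4 ± 10.2, 67.9 ± 10.8, 80.5 ± 9.14 and 50.2 ± 7.27. It was lower in DKO1 than in ACSS2 KO (-0.67, adjusted p = 0.0078), and its higher value in ACSS2 KO than in WT (0.59, adjusted p = 0.022) was lost without WT replicates 1 or 4 or ACSS2 KO replicates 2 or 4 (adjusted p up to 0.0941).

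Gpam (chr19:55067268-55127238, minus strand) encodes the mitochondrial glycerol phosphate acyltransferase that commits acyl chains to glycerolipids. Its values were 1096, 951, 1196 and 1171 normalized counts in WT replicates 1, 2, 3 and 4, 931, 862, 903 and 852 for ACLY KO replicates 1, 2, 3 and 4, 1234, 1354 and 1260.2 for ACSS2 KO replicates 1, 2 and 4 and 770.0, 799 and 545 for DKO1 replicates 1, 3 and 4. The ACSS2 KO libraries were the highest, the DKO1 libraries the lowest, and neither overlapped any other genotype. Gpam was lower in DKO1 than in ACSS2 KO (log2 fold change -0.88, SE 0.13, adjusted p = 7.39e-05) and than in WT (-0.66, SE 0.12, adjusted p = 0.000444). Smaller differences in ACLY KO against WT (-0.31, adjusted p = 0.0347) and DKO1 against ACLY KO (-0.35, adjusted p = 0.046) passed the limit. The first was lost without WT replicates 1, 3 or 4 or ACLY KO replicates 2, 3 or 4 (adjusted p up to 0.0947), and the second was lost in the 11 fits that left out a library other than WT replicate 2 or DKO1 replicates 1 or 3 (adjusted p up to 0.137). Chromosome 19, where Gpam and Bscl2 lie, had medians over 453 tested genes of -0.38 in ACLY KO and -0.54 in DKO1 against WT. The median was -0.52 in DKO1 against ACSS2 KO, and the chromosome's part in the Gpam values was not tested. Gpat3 and Gpat4, genes of the same step, were tested outside the gene set followed here. Gpat3 was higher than in WT in ACLY KO (0.62, adjusted p = 6.09e-05) and DKO1 (0.71, adjusted p = 3.21e-05). Its ACSS2 KO value was 0.076 (adjusted p = 0.621). Gpat4 was lower than in WT in ACLY KO (-0.56, adjusted p = 1.94e-05) and DKO1 (-0.58, adjusted p = 2.45e-05). Its ACSS2 KO value was -0.25 (adjusted p = 0.0261).

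The lysophosphatidate acyltransferases, which add the next acyl chain, did not move together. Agpat1 was lower than in WT in all 3 knockouts, with means of 2809 ± 188, 2096 ± 85.3, 2354 ± 61 and 1992 ± 55.3 and log2 fold changes of -0.42, adjusted p = 4.95e-05 in ACLY KO, -0.25, adjusted p = 0.00931 in ACSS2 KO and -0.49, adjusted p = 2.12e-05 in DKO1. The ACSS2 KO call was lost when libraries were scaled to equal totals. Agpat5 was lower by a like amount in each (-0.53, -0.51 and -0.56, adjusted p from 0.000116 to 0.000778), with means of 2598 ± 232, 1796 ± 38.8, 1819.7 ± 59.4 and 1763 ± 236. All 3 Agpat5 calls were lost when a trend with transcript length was removed, and 2043 bases of an Agpat5 exon are shared with Gm35934 on the other strand, which the sources used here do not say were counted apart. Agpat3 went the other way, from 3164 ± 112 in WT to 3973 ± 124 in ACSS2 KO (0.33, adjusted p = 0.00139), also lost with that length correction. Agpat2 was higher in DKO1 than in either single knockout by 0.21 and 0.22 (adjusted p = 0.0242 and 0.0156), and both values turned slightly negative with the length correction. The first was lost without ACLY KO replicates 2 or 4 or DKO1 replicate 4 (adjusted p up to 0.0623), the second without ACSS2 KO replicate 4 (adjusted p up to 0.0627). The 1008 tested genes of chromosome 2, where Agpat2 lies, had medians of 0.11 in DKO1 against ACLY KO and 0.33 against ACSS2 KO. Agpat4 passed in no comparison.

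Lpin1 (chr12:16535669-16610966, minus strand) encodes the lipin that both dephosphorylates phosphatidate and acts as a transcriptional coregulator. Its values were 207, 209, 259 and 195 normalized counts in WT, 517, 441, 507 and 417 for ACLY KO, 204, 223 and 204 for ACSS2 KO and 668, 610.2 and 425 for DKO1. All 7 libraries without ACLY were above all 7 with it, and DKO1 replicate 4 was the lowest of the DKO1 libraries. Lpin1 was 2.16-fold higher in ACLY KO than in WT (log2 fold change 1.11, SE 0.14, adjusted p = 1.77e-05) and 2.70-fold higher in DKO1 than in ACSS2 KO (1.40, SE 0.16, adjusted p = 7.09e-06). ACSS2 KO differed from WT by -0.042 (SE 0.15, adjusted p = 0.88), and DKO1 from ACLY KO by 0.25, adjusted p = 0.235, a difference that passed at 0.45 (adjusted p = 0.0117) without DKO1 replicate 4.

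Lpin3, a minor lipin, followed ACSS2 instead. Its means were 62.8 ± 9.61, 69.8 ± 8.64, 114 ± 3.43 and 97.1 ± 14.6, higher than in WT in ACSS2 KO (log2 fold change 0.86, SE 0.14, adjusted p = 0.000659) and DKO1 (0.62, SE 0.14, adjusted p = 0.00256). The step from ACLY KO to DKO1 (0.47, adjusted p = 0.0286) was lost without ACLY KO replicates 1, 2 or 3 or DKO1 replicates 1 or 3 (adjusted p up to 0.109). Chromosome 2, where Lpin3 lies, had medians of -0.061 in ACSS2 KO and 0.28 in DKO1 against WT, and its part in the Lpin3 values was not tested. Lpin2, the most abundant, averaged 1316 ± 158, 1393 ± 79.1, 1432 ± 79.9 and 1778 ± 485. Its call in DKO1 against WT (0.40, adjusted p = 0.0479) was lost in the 13 fits that left out a library other than DKO1 replicate 4 (adjusted p up to 0.196), and DKO1 replicate 4 stood at 1219 against 2098 and 2015 in the other DKO1 libraries.

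The acyltransferases of the final step, Dgat1 and Dgat2, were both higher in ACLY KO than in WT. Dgat1 (chr15:76502015-76511953, minus strand) is the enzyme that re-esterifies fatty acids arriving from outside or from lipolysis. Its values were 506, 486, 459 and 437 normalized counts in WT, 644, 645, 624 and 673 for ACLY KO, 539.9, 479.9 and 492 for ACSS2 KO and 613, 608 and 731 for DKO1, and the 7 libraries without ACLY were above the 7 with it. The log2 fold change was 0.45, SE 0.075, adjusted p = 0.000214 in ACLY KO against WT and 0.36, SE 0.086, adjusted p = 0.0031 in DKO1 against ACSS2 KO. The 507 tested genes of chromosome 15, where Dgat1 lies, had a median of 0.24 in ACLY KO against WT, and its part in the Dgat1 value was not tested.

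Dgat2 (chr7:99153658-99182719, minus strand) is the enzyme tied to newly made fatty acids. Its values were 61.9, 82.2, 92.1 and 76.8 normalized counts in WT, 104, 122, 136 and 133 for ACLY KO, 62.1, 63.5 and 56.1 for ACSS2 KO and 109, 82.7 and 82.8 for DKO1. ACLY KO was the highest, ACSS2 KO lay around the lowest WT library, and DKO1 overlapped both WT and ACLY KO. Dgat2 was 1.58-fold higher in ACLY KO than in WT (log2 fold change 0.66, SE 0.14, adjusted p = 0.00152) and higher in DKO1 than in ACSS2 KO (0.58, SE 0.16, adjusted p = 0.00881), while ACSS2 KO against WT gave -0.35, adjusted p = 0.109. A lower value in DKO1 than in ACLY KO (-0.44, adjusted p = 0.0475) was lost in the 10 fits that left out a library other than WT replicates 1 or 3, ACLY KO replicate 1 or DKO1 replicate 1 (adjusted p up to 0.133).

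**Figure D3:**
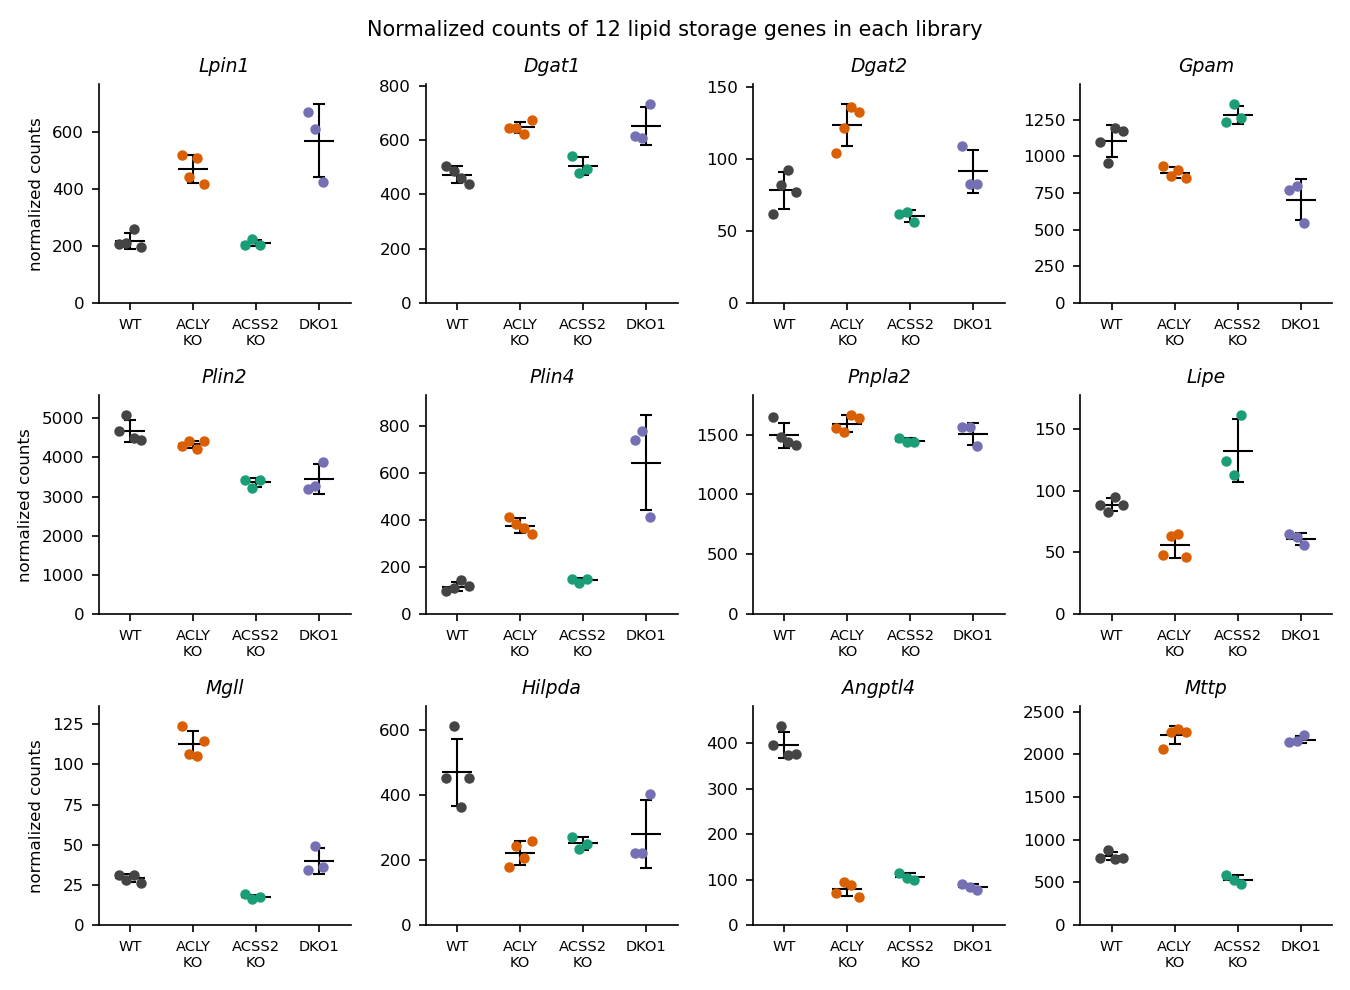
Points are single libraries in normalized counts (linear axes from 0), the horizontal mark is the genotype mean and the bars are the SD (n = 4 for WT and ACLY KO, n = 3 for ACSS2 KO and DKO1), for the 12 genes described library by library. The ACLY KO and DKO1 libraries sit above the rest for Lpin1, Dgat1, Plin4, Mgll and Mttp, and all 10 knockout libraries sit below WT for Angptl4.

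Of the droplet proteins, Plin2 fell where ACSS2 was missing and Plin4 rose where ACLY was missing. Plin2 (chr4:86648386-86670060, minus strand) is stabilised by droplet lipid at the protein level, so its RNA does not by itself report droplet content. Its values were 4664, 5076, 4507 and 4445 normalized counts in WT, 4296, 4410.3, 4228 and 4418 for ACLY KO, 3433, 3217 and 3432 for ACSS2 KO and 3203, 3265 and 3880.0 for DKO1. All ACSS2 KO and DKO1 libraries were below all WT and ACLY KO libraries, and DKO1 replicate 4 was the highest of those 6. Plin2 fell by 0.47 on the log2 scale in ACSS2 KO against WT (SE 0.073, adjusted p = 0.000361) and by 0.34 in DKO1 against ACLY KO (SE 0.073, adjusted p = 0.00436). ACLY KO against WT gave -0.11, adjusted p = 0.224, and DKO1 against ACSS2 KO 0.033, adjusted p = 0.744.

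Plin4 (chr17:56100591-56109803, minus strand) encodes a perilipin with a long repeated amphipathic helix that coats small droplets. Its values were 96.4, 109, 144 and 118 normalized counts in WT, 414, 383, 367 and 339 for ACLY KO, 149.9, 133 and 149.7 for ACSS2 KO and 742, 777 and 412 for DKO1. The libraries without ACLY were all above those with it, DKO1 replicates 1 and 3 were far above ACLY KO, and DKO1 replicate 4 lay just below the highest ACLY KO library. Plin4 was 3.21-fold higher in ACLY KO than in WT (log2 fold change 1.69, SE 0.18, adjusted p = 4.69e-06), 5.51-fold higher in DKO1 than in WT (2.41, SE 0.19, adjusted p = 3.49e-07) and 4.46-fold higher in DKO1 than in ACSS2 KO (2.10, SE 0.21, adjusted p = 2.14e-06). The step from ACLY KO to DKO1 (0.72, SE 0.19, adjusted p = 0.0141) was lost without DKO1 replicates 1 or 3 (adjusted p up to 0.0637). ACSS2 KO against WT gave 0.31, adjusted p = 0.275.

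Plin3, an exchangeable coat protein, averaged 1759 ± 154, 1673 ± 77.9, 2259 ± 42.6 and 2276 ± 503. It was higher in ACSS2 KO than in WT (0.36, adjusted p = 0.0321) and higher in DKO1 than in ACLY KO (0.42, adjusted p = 0.0149), with DKO1 replicate 4 at 2853 against 1931 and 2045. The ACSS2 KO call was lost without WT replicates 1, 3 or 4 or ACSS2 KO replicates 1, 2 or 4 (adjusted p up to 0.0938). Fitm2, which encodes an endoplasmic reticulum protein needed for droplet budding, averaged 392 ± 38.6, 422 ± 8.08, 313 ± 29.6 and 434 ± 59.5 and was higher in DKO1 than in ACSS2 KO (log2 fold change 0.47, SE 0.11, adjusted p = 0.00398), beside a chromosome 2 median of 0.33 in that comparison. Its lower value in ACSS2 KO against WT (-0.32, adjusted p = 0.0412) was lost in the 10 fits that left out a library other than WT replicate 2 or DKO1 replicates 1, 3 or 4 (adjusted p up to 0.184). Bscl2, the seipin gene, passed in no comparison. Its WT libraries ranged from 167 to 339, WT replicate 2 being the highest, and its DKO1 libraries from 89.5 to 209.

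The lipases showed 3 different patterns. Pnpla2 (chr7:141455198-141460743, plus strand), the gene of adipose triglyceride lipase, which takes the first acyl chain, passed in no comparison. Its values were 1649.6, 1479, 1435 and 1415 normalized counts in WT, 1552, 1518, 1661 and 1639 for ACLY KO, 1472, 1442 and 1434 for ACSS2 KO and 1562, 1562 and 1401 for DKO1. The ACLY KO, ACSS2 KO and DKO1 libraries all overlapped the WT range. The estimated differences from WT were log2 fold change 0.093, SE 0.063, adjusted p = 0.248 in ACLY KO, -0.042, SE 0.068, adjusted p = 0.721 in ACSS2 KO and 0.014, SE 0.068, adjusted p = 0.88 in DKO1.

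Lipe (chr7:25379527-25398710, minus strand), the gene of hormone-sensitive lipase, which acts mainly on diglyceride, moved in opposite directions in the 2 single knockouts. Its values were 88.9, 82.8, 95.3 and 88.3 normalized counts in WT, 47.7, 63.6, 65.1 and 46.5 for ACLY KO, 124, 113 and 161 for ACSS2 KO and 64.7, 62.5 and 55.7 for DKO1. The ACSS2 KO libraries were all above WT, and the ACLY KO and DKO1 libraries were all below WT and overlapped each other. Lipe was lower in ACLY KO than in WT (log2 fold change -0.68, SE 0.14, adjusted p = 0.00136), and 2.18-fold lower in DKO1 than in ACSS2 KO (-1.10, SE 0.16, adjusted p = 8.63e-05). Its higher level in ACSS2 KO than in WT (0.56, SE 0.15, adjusted p = 0.0157) was lost with quantile normalization and without ACSS2 KO replicate 4, the highest library (adjusted p = 0.0968). An exon of Lipe shares 453 bases with 4732471J01Rik on the other strand.

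Mgll (chr6:88724412-88828360, plus strand), the gene of monoglyceride lipase, which releases the last acyl chain and also degrades an endocannabinoid, had low counts and large differences. Its values were 31.2, 27.8, 31.3 and 26.4 normalized counts in WT, 124, 107, 106 and 114 for ACLY KO, 19.1, 16.2 and 17.4 for ACSS2 KO and 34.5, 49.03 and 36.1 for DKO1. The ACLY KO libraries stood far above the rest, the ACSS2 KO libraries were below WT, and DKO1 lay just above WT. Mgll was 3.86-fold higher in ACLY KO than in WT (log2 fold change 1.91, SE 0.13, adjusted p = 8.79e-08), and in DKO1 it was 2.82-fold lower than in ACLY KO (-1.49, SE 0.14, adjusted p = 8.67e-06) and 2.27-fold higher than in ACSS2 KO (1.12, SE 0.15, adjusted p = 3.79e-05). ACSS2 KO was lower than WT (-0.70, SE 0.14, adjusted p = 0.00259). The DKO1 excess over WT (0.42, adjusted p = 0.0224) was lost without WT replicate 4 or DKO1 replicate 3 (adjusted p up to 0.12).

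Abhd6, which encodes another monoglyceride hydrolase, averaged 576 ± 51.3, 531 ± 13.8, 705 ± 24.9 and 481 ± 88.1 and was lower in DKO1 than in ACSS2 KO (log2 fold change -0.56, SE 0.11, adjusted p = 0.000818), beside a median of -0.28 for 411 genes of chromosome 14. Its lower value in DKO1 than in WT (-0.27, adjusted p = 0.0412) was lost in the 12 fits that left out a library other than WT replicate 3 or DKO1 replicate 4 (adjusted p up to 0.183). Pnpla8, a phospholipase gene, averaged 808 ± 24.4, 929.6 ± 35.2, 937 ± 55.9 and 1058 ± 196, higher in DKO1 than in WT (0.37, adjusted p = 0.00826), a call lost when these 2 groups alone were fitted.

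The partners of adipose triglyceride lipase changed where its own RNA passed in no test. Abhd5, whose product activates the lipase, averaged 649 ± 47.01, 555 ± 20.02, 677 ± 12.5 and 890.3 ± 56.8. It was lower in ACLY KO than in WT (log2 fold change -0.22, SE 0.065, adjusted p = 0.0116), a call lost with equal library totals, yet higher in DKO1 than in WT (0.46, SE 0.07, adjusted p = 0.000115), than in ACLY KO (0.68, SE 0.07, adjusted p = 1.7e-05) and than in ACSS2 KO (0.39, SE 0.075, adjusted p = 0.000664). The DKO1 libraries, from 857 to 956, were above all others. An Abhd5 exon shares 950 bases with A730085K08Rik on the other strand.

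Hilpda (chr6:29272488-29275446, plus strand), which encodes a small hypoxia-inducible inhibitor of the same lipase, was lower in all 3 knockouts than in WT. Its values were 452, 612, 365 and 452 normalized counts in WT, 178, 244, 206 and 260.0 for ACLY KO, 271, 234 and 249 for ACSS2 KO and 221, 221 and 403 for DKO1. The ACLY KO and ACSS2 KO libraries were all below WT, and DKO1 replicate 4 alone among the knockout libraries reached into the WT range. Hilpda was 2.12-fold lower in ACLY KO (log2 fold change -1.07, SE 0.20, adjusted p = 0.000666), 1.87-fold lower in ACSS2 KO (-0.88, SE 0.22, adjusted p = 0.00954) and 1.67-fold lower in DKO1 (-0.78, SE 0.22, adjusted p = 0.009). With a correction for transcript length, DKO1 was lower than ACSS2 KO as well, at -0.35 (adjusted p = 0.0168), where the uncorrected value was 0.10.

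Mttp and Angptl4, the tested genes of lipoprotein lipid handling, held the smallest adjusted p-values against WT of all 28 in ACLY KO and DKO1. Mttp (chr3:138089854-138144968, minus strand) encodes the transfer protein that loads triglyceride onto apolipoprotein B. Its values were 786, 878, 775 and 786 normalized counts in WT, 2063, 2264, 2292 and 2264 for ACLY KO, 585, 525 and 485 for ACSS2 KO and 2144, 2151 and 2221 for DKO1. ACLY KO and DKO1 overlapped each other far above WT, and ACSS2 KO was below WT. Mttp was 2.75-fold higher in ACLY KO than in WT (log2 fold change 1.46, SE 0.068, adjusted p = 2.4e-09), 2.69-fold higher in DKO1 than in WT (1.43, SE 0.073, adjusted p = 6.97e-09) and 1.52-fold lower in ACSS2 KO than in WT (-0.60, SE 0.073, adjusted p = 5.44e-05). DKO1 against ACLY KO gave -0.031, adjusted p = 0.783. The chromosome 3 median was -0.23 in ACSS2 KO against WT, and its part in that value was not tested. An exon of Mttp shares 197 bases with Trmt10a on the other strand.

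Angptl4 (chr17:33773750-33781830, minus strand) encodes a secreted inhibitor of lipoprotein lipase and a known target of PPAR receptors. Its values were 397, 437, 375 and 377 normalized counts in WT, 71.5, 95.4, 89.2 and 61.1 for ACLY KO, 115, 103 and 98.7 for ACSS2 KO and 90.1, 83.5 and 77.4 for DKO1. All knockout libraries were far below all WT libraries, with ACSS2 KO above both other knockouts in range. Angptl4 was 5.00-fold lower in ACLY KO (log2 fold change -2.33, SE 0.13, adjusted p = 1.3e-08), 3.76-fold lower in ACSS2 KO (-1.90, SE 0.14, adjusted p = 8.55e-07) and 4.74-fold lower in DKO1 (-2.23, SE 0.14, adjusted p = 3.89e-08) than in WT. DKO1 differed from ACLY KO by 0.095, adjusted p = 0.643 and from ACSS2 KO by -0.33, adjusted p = 0.0783. Lpl, the lipase it inhibits, was below the limit for testing.

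Loss of ACLY can be read in cells with ACSS2 (ACLY KO against WT) and in cells without it (DKO1 against ACSS2 KO), from libraries that do not overlap, although all share a common estimate of spread and DKO1 descends from the ACLY KO line. Of the 28 genes, 11 were called in the same direction in both, or 68.8% of the 16 called in each comparison. Over all genes tested the shares were 65.2% and 59%, so the members' share was close to the background. Gpd1l, Gk, Lpin1, Dgat1, Dgat2, Plin4, Mgll and Mttp were higher both times, and Gpam, Agpat1 and Lipe were lower both times. Abhd5 was called in opposite directions, beside 346 of all genes (5.61% and 5.07% of the calls). For loss of ACSS2 (ACSS2 KO against WT and DKO1 against ACLY KO), 4 genes were called alike, Lpin3 and Plin3 higher and Mgll and Plin2 lower, which is 28.6% of 14 and 44.4% of 9 calls, and none was called in opposite directions. Over all genes the shares were 21.2% and 19.8%, with 702 called alike and 604 in opposite directions (18.2% and 17% of the calls). Without DKO1 replicate 4, 12 genes were called alike for loss of ACLY and 8 for loss of ACSS2, Agpat3 and Abhd5 were opposite in the former and Abhd6 in the latter. Over all genes, those called alike went from 4023 to 4944 for loss of ACLY and from 702 to 1206 for loss of ACSS2. Those called in opposite directions were then 476 and 831. Without WT replicate 2, Gpd1 joined Abhd5 as opposite for loss of ACLY, beside 328 of all genes. Without ACSS2 KO replicate 1, 3 genes were called alike for loss of ACSS2, beside 517 of all genes.

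**Figure D4:**
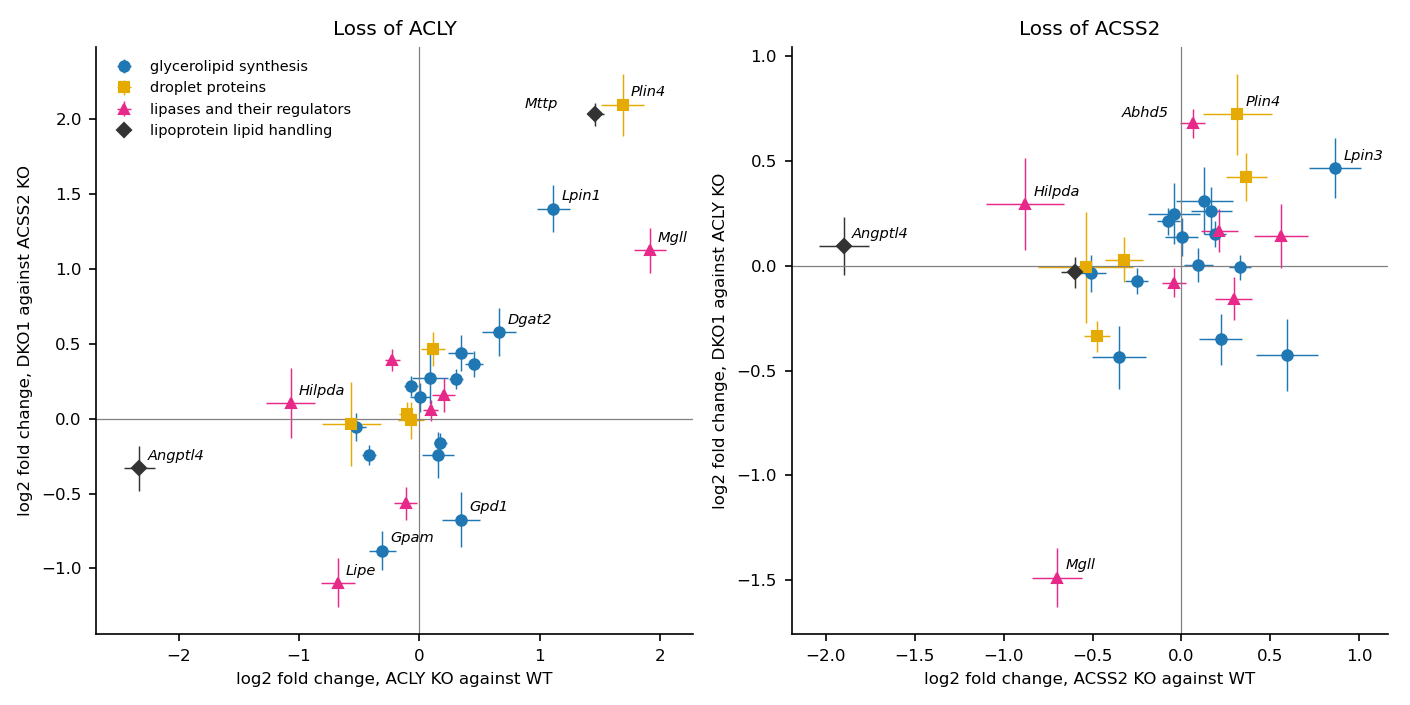
Each point is a tested gene, with its log2 fold change for loss of ACLY (left) or of ACSS2 (right) in cells that have the other enzyme (horizontal) and in cells that lack it (vertical), and bars of 1 SE. Plin4, Mttp, Lpin1 and Mgll lie in the upper right of the ACLY panel, while in the ACSS2 panel Angptl4 lies far to the left at a vertical value of 0.095.

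The 2 losses combined otherwise than by addition on the log2 scale for 11 of the 28 genes (6 positive and 5 negative, 39.3%, beside 27.1% of all genes tested, 12% positive and 15.1% negative), by the interaction term, which subtracts the effect of ACSS2 loss in WT cells from its effect in ACLY KO cells. WT was the only line without a described cloning step, so these terms cannot be told apart from a difference between cloned and bulk cells. Angptl4 had the largest term (2.00, SE 0.20, adjusted p = 1.11e-05). It fell by 1.90 on the log2 scale when ACSS2 was lost from WT cells, and the same loss in ACLY KO cells gave 0.095. Hilpda (1.17, SE 0.31, adjusted p = 0.0135), Abhd5 (0.62, SE 0.099, adjusted p = 0.000525) and Mttp (0.57, SE 0.10, adjusted p = 0.00128) were also positive. Gpd1 (-1.02, SE 0.24, adjusted p = 0.00775), Mgll (-0.79, SE 0.20, adjusted p = 0.0111) and Gpam (-0.57, SE 0.17, adjusted p = 0.0249) were negative, and the Gpam term was lost without ACSS2 KO replicate 2 (adjusted p up to 0.0648). Agpat2, Agpat3, Agpat5 and Abhd6 had smaller terms between -0.45 and 0.47, and the length correction removed all 3 Agpat terms. The Agpat2 term was lost without WT replicate 3, ACLY KO replicates 1, 2 or 4 or ACSS2 KO replicates 1 or 4 (adjusted p up to 0.085), and the Abhd6 term in the 12 fits that left out a library other than WT replicate 2 or DKO1 replicate 4 (adjusted p up to 0.0863). The count was 16 without DKO1 replicate 4, 12 without WT replicate 2 and 9 without either ACLY KO replicate 4 or ACSS2 KO replicate 1.

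Other genes of the pathway gave calls in both directions. Their counts stand beside high shares of all genes tested. Against WT these shares were 48.5% in ACLY KO (23.8% higher and 24.7% lower) and 26% in ACSS2 KO (15.1% and 11%). In DKO1 the share was 56% (27.9% and 28.1%). Whether any list differed from these shares was not tested. Of 26 tested genes of glycerolipid and phospholipid synthesis, 6 higher and 6 lower were called in ACLY KO against WT, 2 higher and 4 lower for ACSS2 KO and 6 higher and 10 lower for DKO1. Cds1, which diverts phosphatidate to CDP-diacylglycerol, was lower in ACLY KO (-1.32, SE 0.064, adjusted p = 3.54e-09), and Dgka, a diacylglycerol kinase gene, was higher in ACSS2 KO (1.76, SE 0.14, adjusted p = 1.31e-06) and lower in DKO1 (-1.37, SE 0.14, adjusted p = 2.5e-06). Of 15 other droplet protein genes, 5 higher and 4 lower were called in ACLY KO, 4 higher and 2 lower for ACSS2 KO and 6 higher and 3 lower for DKO1. Mettl7a1 was higher in all 3, at 1.42, SE 0.075, adjusted p = 8.13e-09 in ACLY KO and 1.38, SE 0.081, adjusted p = 2.15e-08 in DKO1. Faf2 was lower in ACLY KO (-0.92, SE 0.085, adjusted p = 1.25e-06) and in DKO1 (-0.45, SE 0.091, adjusted p = 0.000948).

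The same shares of all genes, 48.5%, 26% and 56% in ACLY KO, ACSS2 KO and DKO1, stand beside the next 3 lists. Of 17 other lipid hydrolases, 5 higher and 6 lower were called in ACLY KO, 4 higher and 1 lower for ACSS2 KO and 5 higher and 8 lower for DKO1. Ces1g, a carboxylesterase gene of hepatocytes, was higher in ACLY KO (3.05, SE 0.25, adjusted p = 3.65e-07) and in DKO1 (2.37, SE 0.27, adjusted p = 7.16e-06). Lipg, the endothelial lipase gene, was lower in ACLY KO (-2.23, SE 0.20, adjusted p = 1.23e-06), in ACSS2 KO (-1.15, SE 0.22, adjusted p = 0.0018) and in DKO1 (-2.86, SE 0.22, adjusted p = 2.51e-07). Of 8 genes of lipoprotein assembly and lipase control, 3 higher and 0 lower were called in ACLY KO, 3 higher and 2 lower for ACSS2 KO and 3 higher and 1 lower for DKO1. Angptl8, a partner of the angiopoietin-like lipase inhibitors, was higher in ACLY KO (1.20, SE 0.24, adjusted p = 0.0011), ACSS2 KO (0.83, adjusted p = 0.0327) and DKO1 (1.73, SE 0.26, adjusted p = 0.0001). Vldlr, a receptor for triglyceride-rich lipoproteins, was higher in ACSS2 KO (1.61, SE 0.13, adjusted p = 1.72e-06). Its ACLY KO and DKO1 values were 0.33 (adjusted p = 0.0338) and 0.30 (adjusted p = 0.0651). Of 16 transcriptional regulators, 2 higher and 2 lower were called in ACLY KO, 3 higher and 2 lower for ACSS2 KO and 3 higher and 4 lower for DKO1. Ppargc1a, a coactivator of oxidative metabolism, was higher in ACLY KO (1.75, SE 0.13, adjusted p = 2.12e-07), in ACSS2 KO (1.79, SE 0.14, adjusted p = 1.72e-06) and in DKO1 (1.16, SE 0.14, adjusted p = 1.73e-05). Pparg, the adipogenic nuclear receptor gene, was lower in ACLY KO (-0.87, SE 0.21, adjusted p = 0.0039), in ACSS2 KO (-1.82, SE 0.23, adjusted p = 6.43e-05) and in DKO1 (-0.65, SE 0.23, adjusted p = 0.0276).

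Among genes outside the 40, Tnnt2, Nsun2, Smn1, Bhlhe41 and Dkc1 had the levels most like those of Plin2 over the 14 libraries, with Pearson's r on the log2 scale of 0.976, 0.973, 0.957, 0.956 and 0.955. These r are descriptions, since the libraries fall into 4 genotypes and share their scaling. RNA was extracted from whole cultures, in which fewer cells that express a gene and less of its RNA per cell cannot be told apart.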

How the data were processed

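Poly(A) RNA of 14 cultures was sequenced by the authors as 75-base single reads on a NextSeq 500 after directional library preparation and aligned with STAR to GRCm38, and the deposited signal per gene is a normalized count from DESeq (DESeq2 1.0.1 per the labels' processing notes). The read counter, its annotation and its strand setting are not given in the sources used here. Whole reads could not be recovered from these values, because 33.4% to 73.6% of values under 3 fell within 0.01 of a whole step, so no count model was used and sequencing depth is known only as an estimate of 19170375 to 33529721 reads per library. Normalized counts plus 1 were taken to log2, genes with a mean of at least 10 over all libraries were kept (12711 of 24972), and limma 3.58.1 in R 4.3.3 fitted 1 mean per genotype with an intensity trend and a spread shared by all 14 libraries. Fold changes are on that scale, which understates changes of low genes. Benjamini-Hochberg adjustment ran over all genes tested and the limit was 0.05. The procedure was tested on simulated data. Library-by-library values are given for genes that passed in any pairwise comparison with an absolute log2 fold change of at least 1, and for Gpam, Dgat1, Dgat2, Plin2, Pnpla2 and Mttp. From each list of related genes, those named were among the 2 with the smallest adjusted p in a comparison, apart from Gpat3, Gpat4 and Lipg's and other genes' values in further comparisons. Gpat3 and Gpat4 were named for their step, beside Gpam. The genes, lists and tests were chosen with earlier results of these data known. Same-numbered libraries of different genotypes did not deviate together (median correlation 0.0077 over 18 pairs), so the numbers were not used as pairs. Gene positions and transcript lengths are from GENCODE M21 (GRCm38) and promoters from RefSeq GRCm38.p6. Alternatives were other minimum means, scalings, a replicate block, no trend, only the groups compared, a length correction, the limits 0.01 and 1.5 on the log2 scale, and leaving out each library. The counts by role and of shared calls without 4 single libraries were added after seeing the data. No protein sequences were used here.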

Additional observations from a re-analysis of the deposited data

Results flagged for a closer look

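Within the groups of 4 libraries, 7 of 56 tested sets of values had a library far from the other 3, where about 1 in 20 would by chance. WT replicate 2 stood apart for Gpd1l (1164 normalized counts, the lowest), Agpat5 (2943, the highest), Fitm2 (334, the lowest) and Mttp (878, the highest). Agpat3 was lowest in WT replicate 4 (2998) and in ACLY KO replicate 4 (3378), and Mttp was lowest in ACLY KO replicate 1 (2063). Transcript length moved with the deviations of WT replicate 2 and ACLY KO replicate 4 (Spearman's rho across genes -0.58 and -0.57), and its part in these values was not tested.

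The effect of ACSS2 loss differed between cells with and without ACLY for 11 genes, by the interaction term of limma at an adjusted p under 0.05. This was 39.3% of the 28 tested members, beside 27.1% of all genes tested. WT alone had no described cloning step, so these terms cannot be told apart from a difference between cloned and bulk cells. The terms on the log2 scale were 2.00 for Angptl4, 1.17 for Hilpda, 0.62 for Abhd5, 0.57 for Mttp, 0.47 for Agpat5 and 0.29 for Agpat2. They were -1.02 for Gpd1, -0.79 for Mgll, -0.57 for Gpam, -0.45 for Abhd6 and -0.34 for Agpat3.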

How the results depend on the processing

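Leaving out each library in turn moved the number of genes called from 14 to 18 in ACLY KO against WT, 9 to 19 in ACSS2 KO against WT, 17 to 22 in DKO1 against WT, 5 to 12 in DKO1 against ACLY KO, 15 to 19 in DKO1 against ACSS2 KO and 9 to 16 for the interaction. Calls over all genes moved too, from 3311 to 5086 in ACSS2 KO against WT without DKO1 replicate 4. With the stricter limits of an adjusted p under 0.01 and an absolute log2 fold change over 1.5, the counts in that order were 3, 1, 2, 0, 2 and 1, the 0 standing beside 9 at the usual limit. DKO1 against ACLY KO gave 3 calls when only these 2 groups were fitted and 15 with a length correction. With the replicate number as a replicate block, the counts were 15, 10, 17, 6, 16 and 9, and 6 of 14 libraries correlated best with their own number. Shares of all genes under the stricter limits, the 2-group fit, the length correction and the block are not given here. Changes in these counts therefore cannot be read as particular to the members. Scaling to equal totals moved the median of all genes to 0.10 in ACLY KO and 0.11 in ACSS2 KO against WT and to -0.16 for the interaction. With the length correction, Agpat2 gave -0.00021 against ACLY KO and -0.068 against ACSS2 KO in DKO1, and in DKO1 against ACSS2 KO Hilpda gave -0.35 and Plin2 -0.13, each opposite in sign to the value reported, and the cause was not tested. A further 72 of 3764 recomputed gene values changed sign without passing in either fit, all from reported values within 0.29 of 0. No other call changed sign under these alternatives. Totals of 19170375 to 33529721 estimated reads left 12 of the 40 genes too low to test.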
